A study of Mus musculus with 32 samples.

Results

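The 6 leukemias of Pax5+/- mice were compared with 4 cultures of proB cells from healthy Pax5+/- mice. These 10 of the 32 arrays of the study were picked by their sample titles, and each of the 28944 probesets on the array was tested. Both groups came from Pax5+/- mice with intact Myd88, on a mixed background of C57BL/6 and CBA. This is the genotype of the mice, and whether the leukemic cells kept the remaining Pax5 allele intact is not given. The leukemic samples are labelled as bone marrow, with no sort given, of animals kept free of specific pathogens until 2 months of age and then exposed to common pathogens. The same housing is given in the labels for the healthy animals, no group is labelled as treated, and each array is labelled as a biological replicate. By the methods the healthy cells came from pups a few weeks old, were enriched from marrow on magnetic beads for the B-lineage antigen B220, and were grown with the cytokine IL7 on stromal ST2 feeder cells. The labels state no culture, and their age at the move to the other housing and the age in the methods cannot both hold for these cells, which are called cultures here after the methods. Leukemia, age, purification, culture and feeder cells therefore changed together and cannot be told apart in this comparison. 4 arrays of sorted WT proB and preB cells and 4 of cultured WT proB cells give a step from culture to marrow without leukemia. The WT marrow cells were sorted and the leukemic marrow has no sort given, and Pax5 genotype differs between the steps, so these steps are not the same. 6 leukemias and 4 cultures of Pax5+/-;Myd88+/- mice repeat the comparison in a second genotype. In all that follows values are log2 array values, a change is the mean of the leukemias minus that of the cultures, and a gene was called when its adjusted p (limma) was under 0.05 and its change over 1, which is a fold of 2.

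Pax5 is the transcription factor that commits lymphoid progenitors to the B lineage: it switches on genes of B-cell identity and of the pre-B cell receptor and keeps genes of other lineages silent. A proB cell rearranges its immunoglobulin heavy chain with the Rag1 and Rag2 recombinase and depends on IL7, and a preB cell that carries a functional heavy chain pairs it with the surrogate light chain of Vpreb and Igll1. B-cell acute lymphoblastic leukemia is a growth of cells stopped near these stages, and loss or mutation of PAX5 is common in the human disease.

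All 10 arrays carried the B-lineage gene Cd79a, leukemia 2 least. Other genes of precursor B cells were not kept alike. Ebf1, Rag1, Rag2, Dntt and Vpreb1, given below, were much lower in leukemias 2 and 4 than in the cultures. Cd79a, the signalling chain of the B-cell receptor, lay between 9.81 and 13.09 in the leukemias (median 12.78) and between 12.10 and 12.37 in the cultures. The lowest of these values belonged to leukemia 2, the next, 11.42, to leukemia 4. Pax5 (chr4:44524748-44710694, build GRCm38.p6, probeset 10512669) read 11.15, 7.69, 12.06, 11.81, 10.98 and 12.29 in leukemias 1 to 6 and 10.86, 11.29, 10.99 and 11.34 in the cultures. Leukemia 2 was thus more than 3 log2 units below the other 5, and the groups overlapped, with a change of -0.12 (91.8% of the culture mean, 2-sided exact permutation p = 0.952). Cultured WT cells lay between 11.53 and 11.81, above the 4 Pax5+/- cultures. Which exons this probeset reads is not given in the sources used here, so it does not test whether an allele is missing.

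Arrays of the same group were not equally alike. The cultures correlated at 0.9913 to 0.9976 over all probesets and the leukemias at 0.9666 to 0.9829, and the SD was larger among the leukemias for 74.7% of the probesets (median SD 0.170 against 0.100). Cultures 1 and 3 differed by over 1 log2 unit in 13 probesets and cultures 2 and 4 in 3, while the other pairs of cultures differed in 52 to 244. Among genes called between leukemias and cultures, those higher in cultures 1 and 3 were led by matrix and growth factor genes of stromal cells. Ogn was higher by 3.06 and Lox by 2.81. Genes without such a call were not searched. The cultured WT arrays paired alike: 1 and 3 differed in 0 probesets and 2 and 4 in 2, the other pairs in 234 to 253. Whether these pairs are separate mice is not stated, so the test was repeated with each pair averaged to 1 sample, and calls lost in this way are named beside the gene. Leukemia 1 read 9.72 for Xist, the RNA of the inactive X chromosome, and 4.90 for the Y-linked Eif2s3y, while the other 5 leukemias lay between 5.44 and 5.74 for Xist and the cultures between 5.61 and 5.97.

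Of the 28944 probesets 2321 (8.02%) were called, 1637 (5.66%) higher and 684 (2.36%) lower in the leukemias. With 1 probeset per gene, 1243 of 19938 genes (6.23%) were higher and 340 (1.71%) lower, and the median change over all genes was -0.04. The groups did not overlap in 9806 probesets (33.9%), and 2196 (7.59%) were called as well. With each culture pair averaged the calls numbered 1922, and a test against a change of 1 in place of 0 left 469.

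The rises were led by genes of platelets, granulocytes and antigen-presenting cells. Ppbp, a chemokine of platelets, read 11.56, 12.32, 11.97, 13.08, 13.26 and 11.25 in leukemias 1 to 6 and 5.29 to 5.38 in the cultures. It had the largest rise of the genes named, by 6.92 (SE 0.37, adjusted p = 1.42e-06), which is 121-fold. Ly86, which encodes the partner MD-1 of the Toll-like receptor relative RP105 on B cells and macrophages, lay between 11.62 and 12.42 in the leukemias (median 12.24) and between 5.36 and 5.6 in the cultures, a rise of 6.66 (SE 0.15, adjusted p = 5.76e-09). No leukemia came near the cultures for either gene. Rnase12, a member of the ribonuclease A family, rose by 6.07 (adjusted p = 1.77e-06) and stood at 10.67 in leukemia 6 and at 12.29 to 12.54 in the other 5. Slamf6, a receptor of lymphocytes that Pax5 activates, rose from 6.10 to 6.23 in the cultures to between 9.59 and 11.93 (median 11.28), by 4.78 (SE 0.43, adjusted p = 2.67e-05). Ly6d, a surface protein of B-committed lymphoid progenitors, rose by 4.83 (adjusted p = 0.000112), with leukemia 6 lowest at 9.05. The others among the 12 largest were the granulocyte genes Ngp (5.33), Lcn2 (5.23) and S100a8 (4.63), Tmem176b (5.09), the MHC class II gene H2-Aa (4.59), the monocyte gene Ms4a6c (4.58) and Rgs18 (4.57), a regulator of G-protein signalling in megakaryocytes.

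The falls were smaller and held genes of the pre-B cell receptor and of signalling. Pgr, the progesterone receptor, lay between 5.63 and 5.89 in the leukemias (median 5.78) and at 9.74, 10.10, 9.81 and 10.09 in the cultures, a fall of -4.17 (SE 0.09, adjusted p = 5.76e-09). Cultured WT cells read 5.90 to 6.10 and cultured Pax5+/-;Myd88+/- cells 5.89 to 6.17, so that the Pax5+/- cultures stood apart from the other cultures and the leukemias did not. Sestd1, a protein with spectrin repeats, fell by 3.26 (adjusted p = 7.94e-09), and here cultured WT cells were high too, at 8.38 to 8.96. Ncam2, a neural adhesion molecule, fell by 3.48 (adjusted p = 1.76e-08), Vat1l by 3.45 (adjusted p = 3.75e-07), Tgfb3, a ligand of the TGF-beta family, by 3.08 (adjusted p = 9.55e-06), and Iftap, a protein tied to ciliary transport, by 3.11 (adjusted p = 0.000483), with -0.78 at its other probeset. Mrgpra1, a receptor of the Mas family known from sensory neurons, was split among the leukemias. It read 5.29, 11.23, 6.00, 11.50, 9.92 and 5.32 in leukemias 1 to 6 against 11.85 to 12.14 in the cultures (change -3.78, adjusted p = 0.0439), and the call was lost without any 1 of the cultures and without leukemia 1, 3 or 6, and with the culture pairs averaged. 3 of the 12 largest falls were not shared by the other probesets of the gene. Fut11, a fucosyltransferase, fell by 3.34 at its brightest probeset and read 1.19 at the other, Hibadh, an enzyme of valine breakdown, fell by 2.87 and read 0.60, and Tns1, a focal adhesion protein, fell by 3.11 while its 5 other probesets read between 0.32 and 2.52. The direction of these 3 genes is therefore uncertain.

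**Figure D1:**
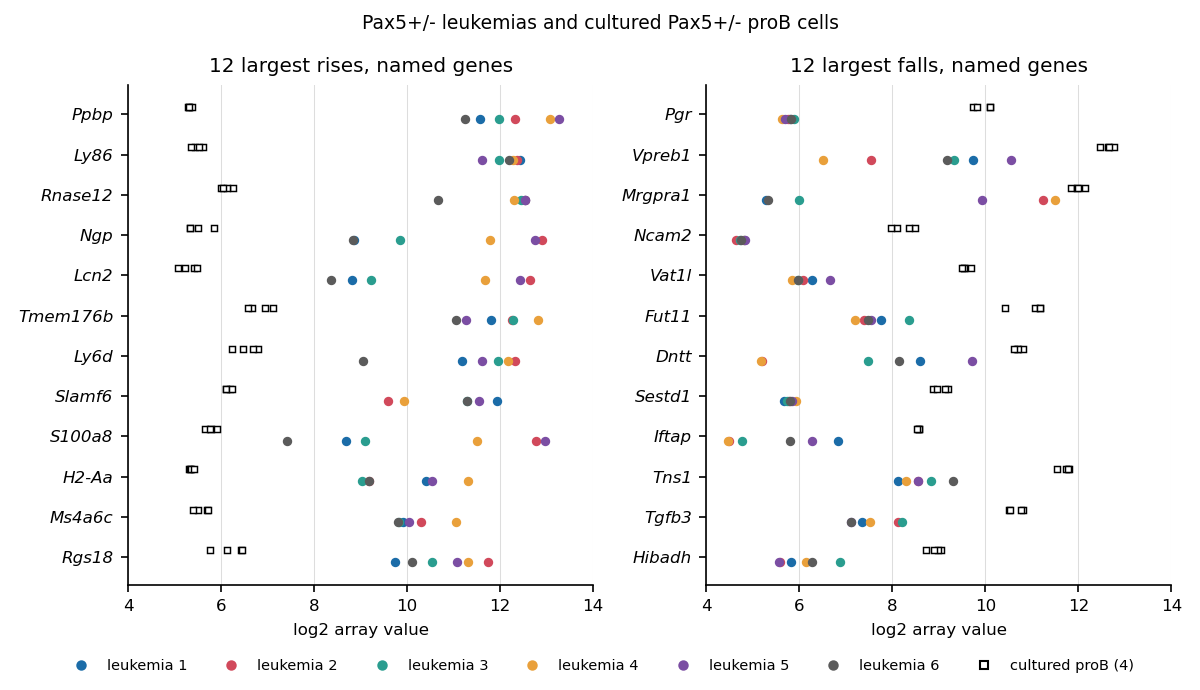
Log2 array values (x axis) of the 12 largest named rises and the 12 largest named falls, with 1 coloured point per leukemia and open squares for the 4 cultures. For Ppbp the leukemias lie between 11.25 and 13.26 and the cultures near 5.3, and for Vpreb1 and Dntt leukemias 2 and 4 lie lowest. The other probesets of Fut11, Hibadh and Tns1 do not share the fall shown.

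The genes of 35 lists give the pattern across pathways. The lists with the highest median change were MHC class II presentation (2.45), markers of granulocytes (2.06), of macrophages and monocytes (1.81) and of platelets and megakaryocytes (1.80), and the type I interferon response (0.93). The lowest medians were those of cholesterol synthesis (-0.78), immediate-early and AP-1 factors (-0.31), V(D)J recombination (-0.26) and mitosis (-0.23). Against the shares of all genes given above, 6.23% higher and 1.71% lower, the counts below can be read. In the step from cultured to sorted WT cells, which contains no leukemia, the median had the opposite sign for 10 of the 35 lists, among them Myc and ribosome biogenesis (-0.69), stromal markers (-0.55), AP-1 factors (0.64) and B-lineage transcription factors (0.49).

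**Figure D2:**
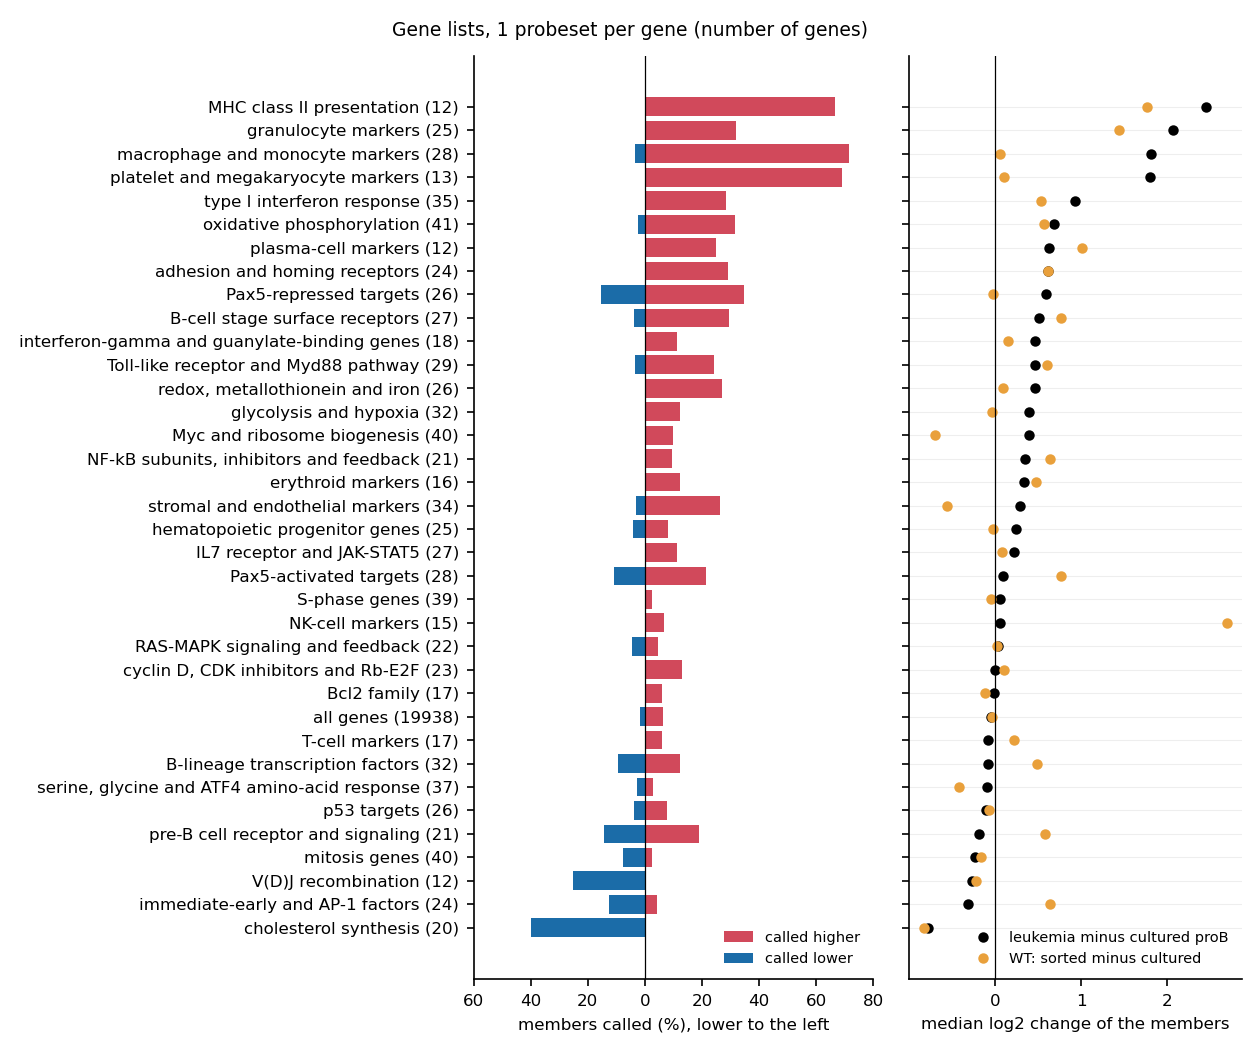
Share of members called (left, percent, called lower drawn to the left of 0 and called higher to the right) and median log2 change of the members (right) for the 35 gene lists and all genes, with the number of genes in brackets. Black points are the leukemia-culture change and orange points the change from cultured to sorted WT cells. MHC class II presentation has the highest median, 2.45, and cholesterol synthesis the lowest, -0.78.

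Markers of other marrow cells rose in the leukemic samples, in different amounts. Of 28 macrophage and monocyte markers 20 were called higher and 1 lower. Wfdc17, a secreted protein of macrophages, lay between 9.69 and 11.35 in the leukemias (median 10.25) and between 5.83 and 5.91 in the cultures, and rose by 4.49 (SE 0.27, adjusted p = 2.80e-06). Lyz2, the lysozyme of myeloid cells, read 12.64, 12.82, 10.82, 11.73, 12.61 and 9.87 in leukemias 1 to 6 against 7.16 to 7.63, a rise of 4.39 (adjusted p = 0.000182). Vcam1, an adhesion molecule of marrow macrophages and stroma, rose by 3.75 (SE 0.21, adjusted p = 1.99e-06), and the complement genes C1qa, C1qb and C1qc of tissue macrophages by 2.31, 3.30 and 2.73. The summed level of these 28 genes was 13.13 to 14.57 in the leukemias, 12.04 to 12.10 in the cultures and 12.52 to 13.04 in sorted WT cells. Of 13 platelet and megakaryocyte markers 9 were higher and none lower, among them the chemokine Pf4 by 3.32 (adjusted p = 0.00044) and the adhesion receptor subunit Gp9 by 3.23 (adjusted p = 0.000814), and their summed level was 12.64 to 14.58 in the leukemias against 11.42 to 11.55 in the cultures and 11.39 to 11.49 in sorted WT cells. In bulk samples more cells of a type and more RNA per cell cannot be told apart.

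Granulocyte genes divided the leukemias. Ngp, a granule protein, read 8.86, 12.90, 9.84, 11.79, 12.76 and 8.84 in leukemias 1 to 6, and S100a8, a calcium-binding protein of neutrophils, 8.68, 12.78, 9.09, 11.50, 12.96 and 7.42. Leukemias 2, 5 and 4 were highest for both, and all 6 were above the cultures, whose values lay between 5.32 and 5.90. With the culture pairs averaged S100a8 was not called. Of 25 granulocyte markers 8 were called higher and none lower. Their summed level was 11.90 to 15.86 in the leukemias, 10.75 to 10.86 in the cultures and 11.69 to 13.98 in sorted WT cells. Of the 25, 4 were called without any 1 of the cultures, 5 without leukemia 2, 4 or 5, and 12 or 13 without leukemia 1, 3 or 6.

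The remaining markers moved less. Of 34 stromal and endothelial markers 9 were higher, led after Vcam1 by Emcn, a sialomucin of endothelium, which rose by 3.14 (adjusted p = 6.95e-05), and 1 was lower, the collagen cross-linking enzyme gene Lox. The summed stromal level of the cultures, 12.77 to 14.19, overlapped that of the leukemias, 13.38 to 14.34. Of 12 plasma-cell markers 3 were higher, among them Jchain, the joining chain of secreted antibody, by 4.15 (adjusted p = 0.00181). Of 16 erythroid markers 2 were higher, of 17 T-cell markers 1, the co-receptor gene Cd4 by 2.48 (adjusted p = 0.0101), and of 15 NK-cell markers 1, the receptor gene Klrd1 by 2.55 (adjusted p = 0.0268). Ncr1, which defines NK cells, stayed between 5.20 and 5.41 in the leukemias and between 4.96 and 5.30 in the cultures. The call of Klrd1 was lost without any 1 of the cultures and without leukemia 4, and Klrd1 read 11.17 in leukemia 2. Neither Klrd1 nor Cd4 was called with the culture pairs averaged. What part the cells of other lineages have in the other results was not tested.

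**Figure D3:**
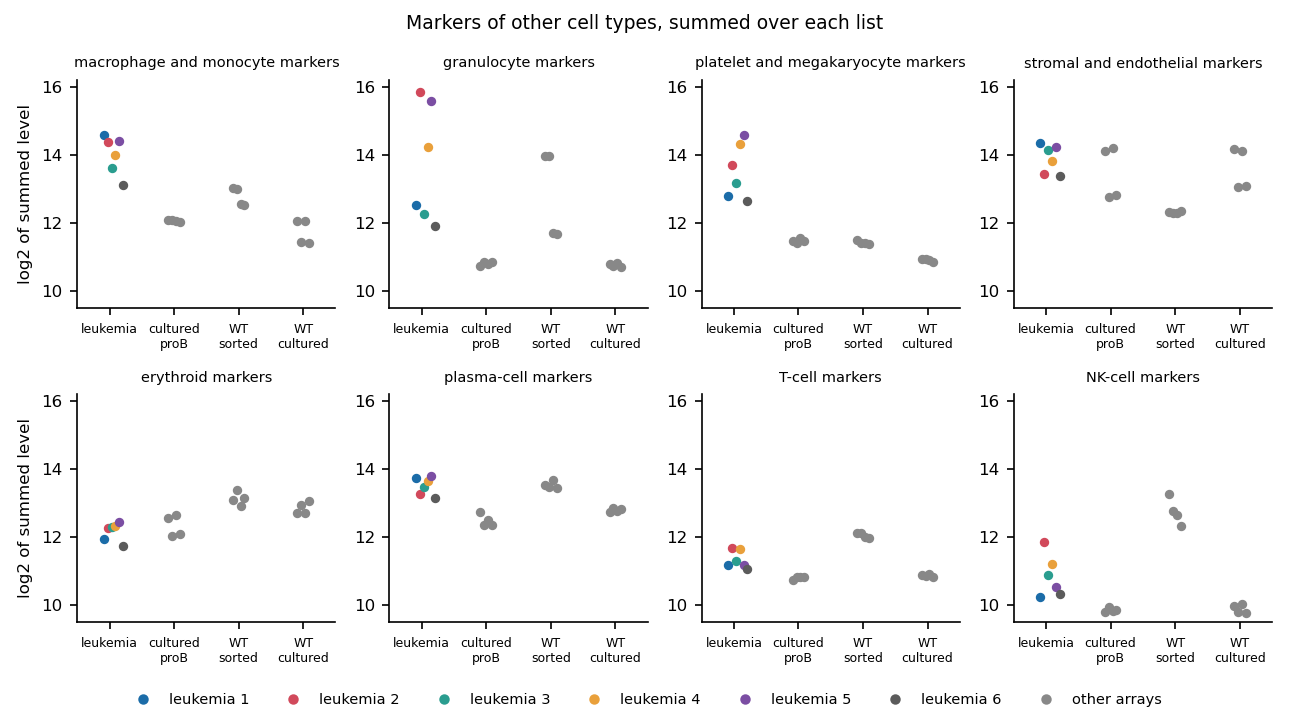
Log2 of the summed level of 8 lists of cell type markers (y axis) in the 6 leukemias (coloured by leukemia), the 4 cultured Pax5+/- proB samples and the sorted and cultured WT cells (grey). Macrophage and platelet markers of the 6 leukemias lie above all other arrays shown, granulocyte markers range from 11.90 to 15.86 among the leukemias, and NK-cell markers are highest in sorted WT cells.

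Genes that present peptides on MHC class II molecules rose together. In B cells, macrophages and dendritic cells these alpha and beta chains are loaded in endosomes after the invariant chain Cd74 is cut away. Of 12 genes measured 8 were called higher and none lower (median 2.45). H2-Aa, an alpha chain, read 10.40, 9.18, 9.03, 11.30, 10.54 and 9.19 in leukemias 1 to 6 and 5.30 to 5.41 in the cultures, a rise of 4.59 (SE 0.43, adjusted p = 3.27e-05). Cd74 rose by 4.42 (adjusted p = 4.00e-05), Ifi30, the reductase of the endosome, by 4.15 (adjusted p = 5.56e-05), H2-Ab1, a beta chain, by 3.76 (adjusted p = 0.000192), and H2-Eb1, another beta chain, by 2.02 (adjusted p = 0.00153). For these 5 genes every leukemia was above every culture, with leukemia 4 highest for H2-Aa, Cd74 and H2-Eb1 and leukemia 6 lowest for Cd74 and Ifi30. H2-Eb2 read 6.15 in leukemia 2 and 9.12 to 10.52 in the other 5, against 5.63 to 6.00 in the cultures (rise of 3.46, adjusted p = 0.00378). Ciita, the co-activator that drives these promoters, was not called (change 0.47, adjusted p = 0.425) and read 9.31 in leukemia 4 against 6.51 to 7.43 in the other 5. With every single array left out 8 genes of the list were called. Sorted WT cells were also high, at 9.87 to 11.19 for H2-Aa, and the class II list had a median change of 1.76 from cultured to sorted WT cells.

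Genes of the class II alpha and beta chains share a promoter module whose last box, the Y box, is an inverted CCAAT motif bound by NF-Y. It is shown for 3 chain genes that rose, chosen among those whose window held the motif. The sequences are the stretch of 55 bases that ends just after the motif, from RefSeq on build GRCm38.p6, each read 5′ to 3′ on the strand of its gene, with the motif in capitals. They lie at chr17:34287862-34287916 (minus strand) for H2-Aa, chr17:34305763-34305817 (plus strand) for H2-Eb1 and chr17:34325530-34325584 (plus strand) for H2-Eb2, where the motif stands 48, 59 and 100 bases before the gene's start.
H2-Aa: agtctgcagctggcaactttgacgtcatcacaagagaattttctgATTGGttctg
H2-Eb1: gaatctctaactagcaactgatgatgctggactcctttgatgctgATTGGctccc
H2-Eb2: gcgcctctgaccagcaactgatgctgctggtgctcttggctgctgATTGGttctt
The motif, searched as CCAAT or ATTGG in the 250 bases before each start, was in 7 of 11 promoter windows of the measured class II genes (63.6%), in 4 of 7 windows of those called (57.1%) and in 11120 of all 32851 windows (33.8%). This is a description of letters, not of binding.

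Myd88, the adaptor that passes signals of most Toll-like receptors to NF-kB, was higher in every leukemia than in every culture. Myd88 (chr9:119335934-119340018, build GRCm38.p6, probeset 10597648) read 9.87, 10.38, 10.02, 10.14, 10.06 and 10.30 in leukemias 1 to 6 and 9.27, 9.21, 9.27 and 9.35 in the cultures. The leukemias were at 181% of the culture mean, a change of 0.85 (limma adjusted p = 9.95e-05), under the fold threshold of a call. An exact permutation test over the 10 arrays gave p = 0.00476 (2-sided), the smallest that 210 arrangements allow. This test counted every array as a separate sample, and whether the culture pairs are separate mice is not stated. Neither this permutation test nor that of Pax5 was repeated with the culture pairs averaged. Averaging would leave fewer arrangements, so the smallest possible p would be larger. Sorted WT cells lay between 10.01 and 10.13 and cultured WT cells between 9.22 and 9.63, a change of 0.62, and the leukemia-culture change exceeded it by 0.23 (adjusted p = 0.288).

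Of the 29 genes of the Toll-like receptor and Myd88 pathway 7 were called higher and 1 lower (median 0.47). Tlr7, a receptor for single-stranded RNA, lay between 9.77 and 10.51 in the leukemias (median 9.93) and between 5.32 and 5.65 in the cultures, a rise of 4.51 (SE 0.14, adjusted p = 6.81e-08). Cultured WT cells read 7.04 to 7.14 and cultured Pax5+/-;Myd88+/- cells 7.70 to 7.92, so that the Pax5+/- cultures were the lowest of these cultures. Among other receptors, Tlr1, which pairs with Tlr2 at bacterial lipopeptides, rose by 2.25 (adjusted p = 0.00719), Tlr8 by 1.83 (adjusted p = 0.000846) and Tlr9, a receptor for unmethylated DNA, by 1.22 (adjusted p = 0.00122). Ly96, the partner of Tlr4 at lipopolysaccharide, rose by 1.31 (adjusted p = 0.0104), whereas Tlr4 itself fell by 1.02 (adjusted p = 0.0171), with leukemia 5 at 8.67, as high as the cultures. With the culture pairs averaged Tlr1, Ly96 and Tlr4 were not called. The call of Tlr4 was also lost without culture 1 or 3, without leukemia 2 or 6 and with array medians subtracted. Downstream, the transcription factor genes Irf5 and Irf7 rose by 1.15 (adjusted p = 0.000333) and 1.74 (adjusted p = 0.0269), the latter not without any 1 of the cultures or leukemia 5 and not with the culture pairs averaged. Of 21 genes of NF-kB subunits, inhibitors and feedback 2 were higher, the inhibitor gene Nfkbib by 1.76 and the nuclear partner gene Bcl3 by 1.28, and none lower. Macrophages also express these receptors, and macrophage markers were higher in the same 6 samples, with the values given above.

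The transcription factors of the B lineage moved in both directions. Of 32 measured 4 were called higher and 3 lower (median -0.08). Id2, which blocks E proteins and is held down by Pax5 in B cells, lay between 10.65 and 12.14 in the leukemias (median 10.93) and between 6.72 and 7.03 in the cultures, a rise of 4.27 (SE 0.26, adjusted p = 3.01e-06). Spib, an Ets factor of B cells and plasmacytoid dendritic cells, rose by 2.84 (SE 0.19, adjusted p = 5.41e-06), Irf8, which acts in early B and myeloid cells, by 1.83 (adjusted p = 0.00595), and Pou2f2, the octamer factor Oct-2, by 1.32 (adjusted p = 0.00323). Myb, a factor of proliferating progenitors, fell by 1.33 (adjusted p = 0.00243) and Sox4, which is needed at the proB stage, by 1.45 (adjusted p = 0.00701), each with every leukemia below every culture. Lef1, a nuclear partner of beta-catenin in proB cells, read 9.45, 5.97, 8.06, 6.51, 9.55 and 10.81 in leukemias 1 to 6 against 10.59 to 11.09 in the cultures (fall of -2.41, adjusted p = 0.0434). The groups overlapped through leukemia 6, and the call was lost without any 1 of the cultures and without leukemia 2, 3 or 4. With the culture pairs averaged Irf8, Sox4 and Lef1 were not called.

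Several factors were lower in leukemias 2 and 4 than in the other 4 leukemias. Ebf1, which with Pax5 specifies the B lineage, read 9.57 in leukemia 2, 10.23 in leukemia 4 and 11.96 to 12.07 in the other 4, against 12.33 to 12.51 in the cultures (change -1.12, adjusted p = 0.0987). Ikzf3, the Aiolos gene of preB and mature B cells, read 6.75 and 6.72 in leukemias 2 and 4 and 8.47 to 9.24 in the other 4, against 8.12 to 8.54 (change -0.13, adjusted p = 0.86). Foxo1, which activates the recombinase genes, read 8.65 and 8.85 in these 2 leukemias and 9.41 to 10.23 in the others (change -0.64, adjusted p = 0.148). In contrast Irf8 was highest in leukemia 2, at 12.85, and Id2 in leukemia 4, at 12.14.

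The recombinase and the surrogate light chain followed the same order. Of 12 genes of V(D)J recombination 3 were called lower and none higher. Rag1 read 10.34, 6.40, 8.05, 5.65, 11.03 and 9.68 in leukemias 1 to 6 and 11.24 to 11.51 in the cultures (fall of -2.84, adjusted p = 0.0399). Rag2 read 9.09, 5.33, 6.55, 5.01, 9.24 and 9.13 against 9.82 to 9.94 (fall of -2.48, adjusted p = 0.0471). Dntt, the polymerase that adds untemplated bases at the joins, read 8.6, 5.19, 7.47, 5.18, 9.72 and 8.15 against 10.61 to 10.82 (fall of -3.31, adjusted p = 0.00979). All 6 leukemias were below the cultures for these genes, leukemias 4 and 2 by the most and leukemia 5 by the least. The calls of Rag1 and Rag2 were lost without any 1 of the cultures and without leukemia 2, 3 or 4, and those of all 3 with the culture pairs averaged.

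Of 21 genes of the pre-B cell receptor and its signalling 4 were called higher and 3 lower. Vpreb1, a part of the surrogate light chain, read 9.74, 7.53, 9.32, 6.51, 10.56 and 9.17 in leukemias 1 to 6 and 12.47 to 12.76 in the cultures, a fall of -3.82 (SE 0.68, adjusted p = 0.00148). Its copy Vpreb2, which is close enough in sequence that the 2 probesets may share signal, fell by 2.52 (adjusted p = 6.66e-05). Cd72, an inhibitory co-receptor, fell by 2.03 (adjusted p = 0.0238), not without any 1 of the cultures and not with the culture pairs averaged. The 4 rises were those of Bank1, a scaffold of B-cell receptor signalling, by 3.32 (adjusted p = 6.85e-05), the inhibitory lectin Cd22 by 2.15 (adjusted p = 0.0151), the receptor chain Cd79b by 1.17 (adjusted p = 0.00206) and the kinase Fyn by 1.03 (adjusted p = 0.00281). The call of Fyn was lost in 5 of 24 alternative settings of the test and that of Cd79b in 2. Cd22 was at culture level in leukemia 5 (8.19) and between 9.51 and 11.60 in the other 5, and it was not called with the culture pairs averaged.

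**Figure D4:**
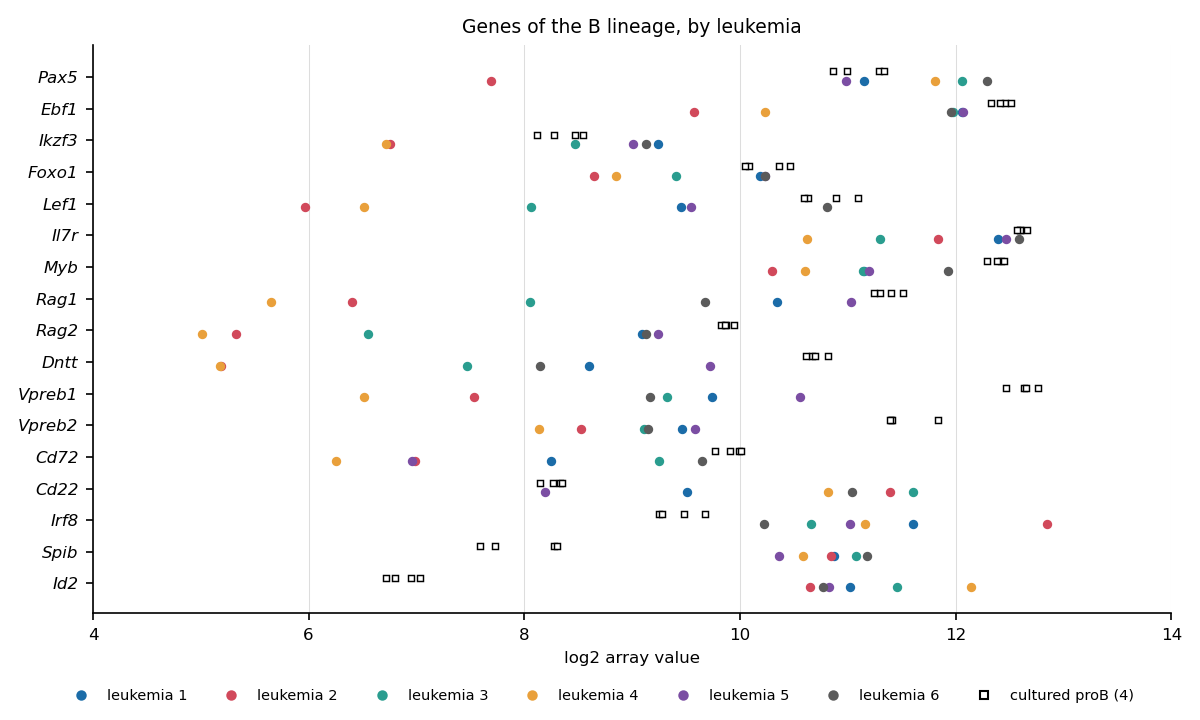
Log2 array values (x axis) of 17 genes of the B lineage, with 1 coloured point per leukemia and open squares for the 4 cultures. Leukemias 2 (red) and 4 (orange) are lowest for Ebf1, Ikzf3, Foxo1, Lef1, Rag1, Rag2, Dntt and Vpreb1, while Spib and Id2 are above the cultures in all 6.

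Of 27 surface receptors that mark B-cell stages 8 were called higher and 1 lower (median 0.51). Kit, the receptor for stem cell factor on proB cells, fell by 1.84 (SE 0.21, adjusted p = 0.000108), from 10.37 to 10.99 in the cultures to between 8.18 and 9.22 (median 8.84). Bst1, the BP-3 antigen that Pax5 activates, rose by 2.14 (adjusted p = 0.0185), not with the culture pairs averaged, with leukemia 4 at 7.11, inside the culture range. Il2ra, the CD25 antigen of preB cells, read 7.94 and 7.58 in leukemias 2 and 4 and 10.28 to 11.35 in the other 4 against 11.58 to 11.93 (change -1.84, adjusted p = 0.0837). Of 28 genes that Pax5 activates 6 were called higher and 3 lower, with a median of 0.09. Of 26 genes that Pax5 represses 9 were higher and 4 lower, with a median of 0.59. The 9 include Id2, Fcer1g, a signalling chain of myeloid and NK cells, which rose by 4.48, the adhesion receptor gene Cd44, which rose by 2.5 (adjusted p = 0.000459), and Csf1r, the receptor of macrophages, by 1.98, and 2 of the 4 lower, Ccl3 and Ccl9, are chemokines, of which Ccl3 was not called with the culture pairs averaged. Csf1r is also among the macrophage markers, which were higher in the same samples. Of 24 adhesion and homing receptors 7 were higher, among them the sphingosine phosphate receptors S1pr3 (2.62) and S1pr1 (1.60), and none lower. Cd34, an antigen of progenitors and endothelium, rose by 2.31 (adjusted p = 0.000942), as 1 of 2 genes called higher among 25 progenitor genes.

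Of 27 genes of the IL7 receptor and JAK-STAT5 pathway 3 were called higher and none lower (median 0.22), where 6.23% of all genes were higher. Cish, which STAT5 induces, lay between 8.08 and 9.43 in the leukemias (median 8.93) and between 7.51 and 7.55 in the cultures, a rise of 1.28 (SE 0.27, adjusted p = 0.00386). The survival kinase Pim2 rose by 1.24 (adjusted p = 0.000914) and the inhibitor Socs1 by 1.03 (adjusted p = 0.0207), the latter not without culture 1 or 3 or leukemia 4 and not with the culture pairs averaged. Il7r, the receptor itself, read 12.39, 11.84, 11.30, 10.62, 12.47 and 12.59 in leukemias 1 to 6 against 12.57 to 12.66 (change -0.74, adjusted p = 0.117). The cultures were grown in IL7. Of 22 genes of RAS-MAPK signalling 1 was higher, the feedback inhibitor gene Spry1 (1.25), and 1 lower, the phosphatase gene Dusp5 (-1.24). Of 24 immediate-early and AP-1 factors 3 were lower and 1 higher. Fosb fell by 1.98 (SE 0.16, adjusted p = 1.33e-05), Nr4a1, a nuclear receptor induced by antigen receptor signals, by 1.76 (adjusted p = 0.000185) and Egr1 by 1.02 (adjusted p = 0.000992), the last lost with array medians subtracted and without culture 2 or 3 or leukemia 1 or 2.

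Interferon-induced genes were higher in part of the leukemias. Of 35 genes of the type I interferon response 10 were called higher and none lower, and 33 lay above 0 (median 0.93). Ifitm3, a membrane protein that blocks virus entry, lay between 11.24 and 12.15 in the leukemias (median 11.86) and at 9.60, 8.38, 8.56 and 8.09 in the cultures, a rise of 3.14 (SE 0.28, adjusted p = 2.43e-05). Samd9l, an antiviral and growth-restraining protein, rose by 1.56 (adjusted p = 0.00385). Taken array by array, the median of the 35 genes stood above the culture mean by 1.5, 0.56, 0.40, 0.06, 1.46 and 1.40 in leukemias 1 to 6. Leukemias 1, 5 and 6 were high and leukemia 4 was near the cultures. Of the 35, 15, 16 and 18 were called without leukemia 2, 3 and 4 and 6 without leukemia 5. Of 18 interferon-gamma and guanylate-binding genes 2 were higher and none lower.

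Genes of cholesterol synthesis were lower in the leukemias. These enzymes are induced together by SREBP2 when sterols are scarce. Of 20 measured 8 were called lower and none higher, and 19 lay below 0. Insig1, a sterol sensor and SREBP target, read 9.29, 9.14, 8.70, 9.07, 9.52 and 9.81 in leukemias 1 to 6 and 11.04, 11.31 and 11.33 in cultures 1, 2 and 4, with culture 3 just below, a fall of -1.92 (SE 0.19, adjusted p = 4.45e-05). Cyp51, lanosterol demethylase, fell by 1.79 (adjusted p = 0.000145), Hmgcs1, which makes HMG-CoA, by 1.62 (adjusted p = 7.77e-05), and Msmo1, a sterol oxidase, by 1.59 (adjusted p = 0.000728). For these 4 genes each leukemia was below each culture, and the array medians of the list were below the culture mean in all 6, by 0.50 in leukemia 6 to 1.2 in leukemia 3. The WT cells showed the same order without leukemia, with a median change of -0.82 from cultured to sorted cells and 8 of 20 lower, where 2.98% of all genes were lower and 7.05% higher. Only Insig1 fell further in the leukemias than in WT cells by the test of that difference (-1.46, adjusted p = 0.000706).

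SREBP2 acts at such promoters with NF-Y, which binds CCAAT, and the box is shown for the 4 genes above. The sequences are stretches of 45 bases from RefSeq on build GRCm38.p6 in the direction of the gene, with CCAAT, or ATTGG where it lies on the other strand, in capitals. They are at chr5:28071176-28071220 (plus strand) for Insig1, chr5:4104702-4104746 (minus strand) for Cyp51, chr13:119690286-119690330 (plus strand) for Hmgcs1 and chr8:64733650-64733694 (minus strand) for Msmo1, where the motif stands 216, 29, 45 and 96 bases before the start.
Insig1: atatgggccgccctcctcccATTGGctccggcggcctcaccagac
Cyp51: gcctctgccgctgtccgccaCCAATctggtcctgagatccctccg
Hmgcs1: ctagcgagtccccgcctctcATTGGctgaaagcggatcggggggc
Msmo1: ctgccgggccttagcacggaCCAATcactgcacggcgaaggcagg
The motif was in 16 of 19 windows of the measured genes (84.2%) and in 6 of 8 of those called (75.0%), against the 33.8% of all windows. The same motif thus stood in promoters of genes that rose and of genes that fell.

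Of 41 genes of oxidative phosphorylation 13 were called higher and 1 lower (median 0.69). Array by array the list median of culture 1, 0.5 above the culture mean, exceeded that of leukemia 6, at 0.34. Atp5d, a subunit of ATP synthase, lay between 12.57 and 12.92 in the leukemias (median 12.79) and at 10.66, 9.87, 9.48 and 9.54 in the cultures, a rise of 2.87 (SE 0.20, adjusted p = 6.98e-06). Cox6c, of cytochrome oxidase, rose by 2.24 (adjusted p = 6.12e-05) and Ndufs4, of complex I, by 2.20 (adjusted p = 2.14e-05). Sorted WT cells differed from cultured WT cells by as much, 3.27, 2.23 and 2.29 for these 3 genes, and no gene of the list was called for a difference between the 2 steps. Of 40 genes of Myc and ribosome biogenesis 4 were higher and none lower (median 0.39), where 6.23% of all genes were higher, among them Polr1b, of RNA polymerase I, by 1.49 (adjusted p = 4.11e-05), the nucleolar Nop16 by 1.45 (adjusted p = 0.000104) and Srm, spermidine synthase, by 1.40 (adjusted p = 0.00014). Myc itself read 10.89 to 12.03 in the leukemias (median 11.69) and 10.92 to 11.14 in the cultures (change 0.57, adjusted p = 0.0434), under the fold threshold, and the list median of leukemia 2, equal to the culture mean, lay below that of cultures 1 and 3.

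Genes of the cell cycle differed little. Of 39 S-phase genes 1 was called higher, Rfc4 by 1.64, and none lower (median 0.06), and of 40 mitosis genes 1 was higher and 3 lower (median -0.23). Hmmr, a spindle protein, fell by 1.31 (adjusted p = 3.27e-05), and Aurkb, a kinase of chromosome segregation, rose by 1.08 (adjusted p = 1.37e-05). Ccnd1, cyclin D1, read 10.95, 12.16, 8.83, 11.91, 9.26 and 10.61 in leukemias 1 to 6 against 7.75 to 8.19, a rise of 2.64 (SE 0.62, adjusted p = 0.00668), in different amounts but above the cultures in all 6. It was not called with the culture pairs averaged. Ccnd1 was 1 of 3 genes called higher among 23 of cyclin D, CDK inhibitors and Rb-E2F, of which none was lower. Of 17 genes of the Bcl2 family 1 was higher and none lower, and of 26 p53 targets 2 were higher and 1 lower. Of 32 genes of glycolysis and hypoxia 4 were higher and none lower, and of 37 genes of serine, glycine and the ATF4 response 1 was higher and 1 lower. Of 26 redox, metallothionein and iron genes 7 were higher, among them the metallothionein Mt2 by 1.94 (adjusted p = 0.000371), and none lower.

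The change from culture to leukemic marrow was set beside the change from cultured to sorted WT cells, to see which differences WT cells also showed. The WT step adds a sort that is not given for the leukemic marrow. It also starts from WT cultures, where the leukemia step starts from Pax5+/- cultures. Pax5 genotype and leukemia therefore cannot be told apart in a difference between the 2 steps. The sorted WT arrays read 12.23 to 12.46 for Xist and the Pax5+/- cultures 5.61 to 5.97, so sex differed between these arrays as well. The 2 changes share no arrays. Of the 2321 called probesets 2057 (88.6%) had the same sign in WT cells, against 73.6% of all probesets, and 1224 were also called there in that direction. These are 52.7% of the calls in the leukemias and 41.8% of the 2928 calls in WT cells (10.1% of all probesets, 6.31% higher and 3.8% lower), and 23 were called in opposite directions. Ly86 (5.93), Slamf6 (5.19), H2-Aa (5.32), Ly6d (5.12) and Id2 (3.96) rose in WT cells too, and Sestd1 (-2.79), Vat1l (-4.50) and Vpreb1 (-2.94) fell there. In this WT step 12 of 15 NK-cell and 13 of 25 granulocyte markers were also called higher and none lower, where 7.05% of all genes were higher. What part cells of other lineages have in the shared changes was not tested.

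The difference between the 2 changes was called for 1665 probesets (5.75%), 926 (3.2%) higher and 739 (2.55%) lower in the leukemia step, and for 1274 genes (6.39%), 714 (3.58%) higher and 560 (2.81%) lower. With the pairs of Pax5+/- and of WT cultures averaged the calls numbered 1014. The sorted WT arrays were not averaged, though their summed granulocyte levels, 13.98, 13.96, 11.7 and 11.69 in arrays 1 to 4, paired too. Rnase12 had a difference of 8.99 (adjusted p = 6.78e-10). Most of it was its rise in the leukemias given above, and the rest a fall from 9.68 to 9.83 in cultured to 6.53 to 7.23 in sorted WT cells. Ppbp (6.14, adjusted p = 1.57e-07), Vcam1 (3.80, adjusted p = 8.02e-08), Tlr7 (3.69, adjusted p = 7.95e-10) and Ifitm3 (3.55, adjusted p = 2.18e-05) rose in the leukemias beyond their WT change. For Tlr7 the Pax5+/- cultures were also lower than cultured WT cells, with the values given above. Mt2, which binds zinc and copper, rose in the leukemias and fell by 3.5 in WT cells, a difference of 5.44 (adjusted p = 7.07e-08). By list, 14 of 28 macrophage and 7 of 13 platelet markers had a higher difference, and so did 15 of 34 stromal markers, which were lower in sorted than in cultured WT cells. The WT marrow cells were sorted, the leukemic marrow has no sort given, and the cultures differ in Pax5 genotype. Leukemia, sorting and genotype therefore cannot be told apart for these markers. The Myc and ribosome list had 21 of 40 genes higher, with a median difference of 1.08, with a median of -0.69 in WT cells and 0.39 in the leukemias. Myc itself differed by 2.05 (adjusted p = 0.00692), Cish by 2.63 (adjusted p = 0.000487) and Socs2, another STAT5 feedback gene, by 2.19 (adjusted p = 4.45e-05).

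Of 32 B-lineage transcription factors 8 had a lower difference and none a higher one, and of 16 erythroid markers 6 had a lower one. Ikzf3 rose by 3.76 from cultured to sorted WT cells, which lay between 11.66 and 11.94, and the leukemias stayed between 6.72 and 9.24, a difference of -3.89 (adjusted p = 0.000443). Irf4 (-3.01, adjusted p = 2.61e-05) and Bach2 (-2.84, adjusted p = 0.000203), regulators of preB and later B cells, were lower too. Cd72 differed by -5.31 (adjusted p = 0.000181), as it rose to 11.64 to 12.23 in sorted WT cells and fell in the leukemias. Foxo1 (-1.41, adjusted p = 0.0201) and Myb (-1.69, adjusted p = 0.00208) were lower as well, and 9 of 24 AP-1 factors were. Of 15 NK-cell markers 12 had a lower difference, and these genes were high in sorted WT cells, whose summed level was 12.32 to 13.28 against 9.78 to 10.04 in cultured WT cells. What part this has in the other lower differences was not tested.

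**Figure D5:**
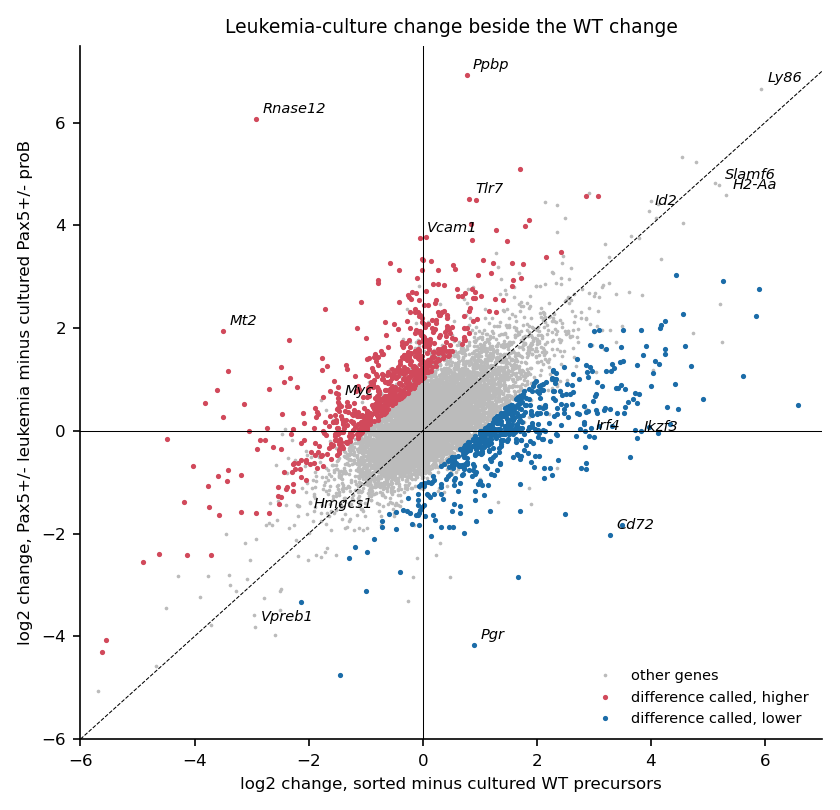
Log2 change from cultured Pax5+/- proB cells to Pax5+/- leukemias (y axis) against the change from cultured to sorted WT cells (x axis), 1 point per gene. Red and blue mark genes whose 2 changes differ by the test, higher or lower in the leukemias, and the dashed line marks equal changes. Ly86 lies near the line, Ppbp and Rnase12 far above it, and Ikzf3 and Irf4 near 0 on the y axis with WT changes of 3.76 and 2.92.

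In the second genotype, Pax5+/-;Myd88+/-, leukemias and cultures differed in 492 probesets (1.7%), 1.01% higher and 0.694% lower, and in 1.81% of the genes, 1.02% higher and 0.787% lower. A fit of all 32 arrays gave 822 calls, and leaving out Pax5+/-;Myd88+/- culture 2 gave 326. Of the 2321 called probesets 1976 (85.1%) had the same sign there, against 70.7% of all, and 320 were called in the same direction, which is 13.8% of the calls in Pax5+/- and 65.0% of the 492, with 6 in the opposite direction. Ly86 rose by 6.09 and Sestd1 fell by 3.42 in that genotype as well. The change was tested for a difference between the genotypes, and 1184 probesets (4.09%) were called, 2.45% with a higher and 1.64% with a lower change in Pax5+/-, and 3.38% of the genes, 2.68% higher and 0.702% lower. Cultures 1 to 4 of Pax5+/-;Myd88+/- may pair as well, with summed erythroid levels of 12.41, 11.97, 12.41 and 11.97. No test with pairs averaged was made for this genotype or for the difference between genotypes. Pgr differed by -4.06 (adjusted p = 6.15e-13) and Slamf6 by 4.32 (adjusted p = 0.000108), and for both the cultures set the difference: cultured Pax5+/-;Myd88+/- cells read 9.45 to 9.95 for Slamf6 and their leukemias 9.39 to 11.62. Wfdc17 differed by 3.90 (adjusted p = 2.32e-06), and here the leukemias did, at 5.88 to 7.11 in Pax5+/-;Myd88+/-. Dntt differed by -4.82 (adjusted p = 0.00523), with 7.84 to 9.07 in the cultures and 7.52 to 11.01 in the leukemias of that genotype. The respiratory genes Atp5d (2.29), Cox6c (1.82) and Ndufs4 (1.89) rose more in Pax5+/-, and Tlr7 did by 2.47 (adjusted p = 0.000854). The cultures of the second genotype read 12.40 to 12.52 for Xist and those of Pax5+/- 5.61 to 5.97, so the sex of the cultured cells differed along with the genotype.

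Single leukemias carried genes that the other 5 did not. Pairs of leukemias differed by over 1 log2 unit in 727 to 1540 probesets. Leukemia 2, in which Pax5 was lowest, read 12.31 for Siglech, a lectin of plasmacytoid dendritic cells, and 11.61 for Ccr9, a gut-homing chemokine receptor also found on these cells, where the other 5 lay between 6.06 and 8.56 and between 5.91 and 7.63. Leukemia 4 read 9.95 for Fcer2a, the IgE receptor CD23 of mature B cells, against 5.83 to 6.62, and 10.47 for the interferon-inducible Ifi202b against 4.53 to 6.00. Leukemia 3 was highest for Mybpc1 (9.48), a muscle myosin-binding protein, and for the mesenchymal factor Foxf1 (9.14), leukemia 5 for Serpina3b (9.40) and Adck1 (9.91), and leukemia 6 for Efhd1 (10.83), a mitochondrial calcium-binding protein, and Lgr5 (8.81), a receptor of Wnt-enhancing R-spondins. Leukemia 1 was highest for Glycam1 (9.85), a mucin that binds L-selectin. Sorted WT cells were also high for Siglech (10.75 to 11.18), Ccr9 (9.06 to 9.48) and Lgr5 (9.96 to 10.42). For the other genes named in this paragraph sorted WT cells stayed well below the lone leukemia. All these genes of single leukemias were chosen for the size of their gap and so no test was made.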

How the data were processed

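RNA of 32 samples was read on Affymetrix MoGene 1.0 ST arrays. The authors deposited log2 values made with Transcriptome Analysis Console by gene-level RMA, on mm10. Whether all arrays were normalized together is not stated, and a shared quantile step would make array medians alike (6.90 to 7.01 in the 10 arrays). Of 28944 probesets 21789 name 1 gene in GEO's platform annotation, 1621 several and 5534 none. A gene was represented by its brightest probeset. limma 3.58.1 in R 4.3.3 was fitted to the 2 groups of each comparison, or to the 4 groups of each difference, with Benjamini-Hochberg adjustment over all probesets. In simulated data, of 100 probesets changed by 1.5, 95 were called in the main comparison with 1 false call. The simulated arrays were drawn independently, so these figures do not cover cultures that pair or single leukemias that stand apart. A list was described by counts and medians with no test. The 35 lists, the naming rule and the comparison itself were chosen with earlier results of these data known. Named are the 12 largest non-overlapping rises and falls, the 3 strongest called members of each list, the 8 strongest differences of each sign, the 3 widest gaps of each leukemia genes the study names, Xist and Y-linked genes and those of the B-lineage factor, JAK-STAT5 and Toll-like receptor lists, from which the text takes those that carry a statement. Other members were named after their values were seen, as examples. Replicates with no stated culture or litter may share one, and p-values then measure only the spread between these samples. The number of arrays limits the precision.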

Additional observations from a re-analysis of the deposited data

Results flagged for a closer look

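In 27 of 242 groups of values, of 121 genes in the leukemias or in the cultures, 1 array stood far from the others of its group. Chance alone flags about 1 in 20 groups, and 18 of the genes had been chosen because 1 leukemia stood apart. Leukemia 1 was alone for Xist (9.72), Eif2s3y (4.90), Glycam1 (9.85), Tspan2 (6.81) and Nop16 (11.37). Leukemia 2 was alone for Pax5 (7.69), Ccr9 (11.61), Emcn (6.97) and H2-Eb2 (6.15). Leukemia 3 was alone for Mybpc1 (9.48) and Foxf1 (9.14), leukemia 4 for Ifi202b (10.47), Pcdh9 (9.54) and Fcer2a (9.95), and leukemia 5 for Olfr111 (7.46). Leukemia 6 was alone for Rnase12 (10.67), Ly6d (9.05), Ifi30 (9.15), Efhd1 (10.83), Lgr5 (8.81) and Vmn1r200 (7.29). Among the cultures, culture 1 was alone for Fut11 (10.43), Wfdc17 (5.83), Vpreb2 (11.84), Bst1 (6.99) and Ly96 (8.21), and culture 2 for Siglech (6.43).

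The change from culture to leukemia differed between Pax5+/- and Pax5+/-;Myd88+/- mice, by the test of the difference, for 31 of 103 genes named. Positive values are those of a change that was higher in Pax5+/-. Among the largest rises and falls they were Pgr (-4.06), Ncam2 (-3.10), Fut11 (-3.25), Dntt (-4.82), Tns1 (-2.85), Tgfb3 (-3.41), Hibadh (-3.43), Tmem176b (2.43), Slamf6 (4.32) and Rgs18 (2.38). Among genes of signalling and B cells they were Id2 (1.76), Socs1 (1.05), Tlr7 (2.47), Tlr4 (1.12), Ly96 (1.79), Vpreb2 (-1.36), Nr4a1 (-1.94) and Ccl3 (2.37). Among surface genes they were Cd44 (3.19), Cd34 (1.86), Adgre5 (-3.10), a leukocyte adhesion receptor, and Tspan2 (-2.09), a tetraspanin. The others were Nop16 (1.07), Srm (1.01), Aurkb (1.23), Atp5d (2.29), Cox6c (1.82), Ndufs4 (1.89) and the markers Wfdc17 (3.90), Gp9 (2.36) and Emcn (2.13). The cultures of the 2 genotypes also differed in sex by Xist, and this difference was not tested with culture pairs averaged.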

How the results depend on the processing

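Over 24 alternative settings of the main comparison no call changed direction. A test against a change of 1 left 469 probesets, 298 higher and 171 lower, in place of 1637 and 684. Quantile normalization repeated on the 21366 probesets that name a gene outside the small RNA, histone and mitochondrial classes gave 1034 higher and 567 lower. Only 1701 of the main calls lay among these 21366 probesets, and 1360 of those were kept. With 1 array left out at a time the calls numbered 2117 to 2425. With cultures 1 and 3 and cultures 2 and 4 averaged, an alternative added after the values were seen, the difference from the WT change was called for 1014 probesets, 523 higher and 491 lower, in place of 1665, 926 and 739. This averaged the Pax5+/- and WT cultures and not the sorted WT arrays. In the second genotype a fit of all 32 arrays gave 822 calls in place of 492, and single arrays left out gave 326 (without Pax5+/-;Myd88+/- culture 2) to 679. The difference between the genotypes was an addition after the values were seen. The replicate numbers of leukemias and cultures did not pair the samples, since same-numbered arrays correlated in their deviations at 0.133, 0.061, -0.02 and -0.119, and a replicate block over numbers 1 to 4 gave 2440 calls against 2459 on the same arrays without it. 4 uncalled changes turned sign with 1 leukemia left out: that of Pax5, -0.12, was 0.54 without leukemia 2 (range over single arrays left out -0.38 to 0.54), that of Cd79a, -0.08, was 0.38 without leukemia 2 and 0.06 without leukemia 4 (-0.27 to 0.38), that of Ikzf3, -0.13, was 0.16 and 0.17 without leukemia 2 and 4 (-0.34 to 0.17), and that of Irf4, -0.10, was 0.02 without leukemia 4 (-0.33 to 0.02). The cause was not tested. Of 90 called genes named 77 were called with every single array left out, and 41 by the test against a change of 1. With culture pairs averaged 21 were not called: Mrgpra1, Dntt, S100a8, Cd22, Lef1, Socs1, Klrd1, Cd4, Tlr1, Rag1, Rag2, Ccnd1, Irf7, Ccl3, Cd72, Adgre5, Bst1, Sox4, Irf8, Tlr4 and Ly96. That leaves 2 cultures. The quantile setting ended the calls of Socs1, Aurkb, Adgre5, Irf5, Cd79b and Fyn, and limma-trend those of Mrgpra1, Lef1, Rag1 and Rag2. With array medians subtracted Tlr4, Rag2 and Egr1 were not called.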

Other observations

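Tspan2 and Adgre5 had lower changes in the leukemia step than in the WT step. Tspan2 fell by 2.84 in the leukemias (adjusted p = 0.000106) and rose by 1.67 from cultured to sorted WT cells, a difference of -4.51 (adjusted p = 5.29e-06), with Pax5+/- cultures at 10.78 to 11.15 and cultured WT cells at 6.90 to 8.06. Adgre5 rose in both, by 1.07 and by 5.61, a difference of -4.54 (adjusted p = 2.29e-07). Its rise in the leukemias was not called with the culture pairs averaged, by the quantile setting, or without culture 1 or 3 or leukemia 2 or 6. Its Pax5+/- cultures lay between 8.73 and 9.31 and cultured WT cells between 5.92 and 6.28, so that much of each difference stood between the cultures of the 2 genotypes. Ccl3, a macrophage chemokine, fell by 1.84 in the leukemias (adjusted p = 0.0237), not with the culture pairs averaged and not without culture 2 or 4, and read 9.40 and 8.89 in leukemias 2 and 6 and 6.51 to 7.26 in the other 4. Bcar3, an adaptor of integrin signalling, was not called (change -0.82, adjusted p = 0.0634), with leukemia 6 at 8.69 and the other 5 at 6.65 to 7.43.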
